A study of Drosophila melanogaster with 6 samples.

Results

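The levels of 6 genes of the secreted DNA/RNA non-specific endonuclease family were followed through midgut RNA of mated and virgin Drosophila melanogaster females. They are CG6839, CG3819, CG14120, CG14118, CG33346 and CG9989, taken by symbol from the 17116 genes of the count files, where CG9989 stands under its newer symbol Sid, for stress-induced DNase. All 6 were found. The list was drawn up with earlier results of the same contrast in view, so the mated and virgin values of these genes are given as a description. Mated females were 8 days old and 3 days past mating, virgin females were also 8 days old, and both were wild-type w1118 flies, a white-eyed laboratory stock. Each group had 3 libraries of polyadenylated RNA, and each library pooled the guts of 30 females, so differences between individual flies are averaged out. Whether these pools stem from independent cultures is not given, so p-values measure only the spread between these libraries, which may be technical.

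Enzymes of this family are metal-dependent nucleases that cut single- and double-stranded DNA and RNA with little regard for sequence. Secreted members act in the gut lumen, where they break down nucleic acids of the food and of microbes. In other insects, such as the silkworm, gut members of the family also degrade double-stranded RNA that has been eaten. The products, nucleotides, are stripped of phosphate and taken up as nucleosides by the gut epithelium.

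Gene counts per library ranged from 16293718 to 25464204 in mated and from 15902696 to 29021297 in virgin midguts. Levels are given in CPM, counts scaled to a common library total by library sizes scaled by the trimmed mean of M values (TMM). A gene was called where its Benjamini-Hochberg adjusted p in edgeR's quasi-likelihood fit was below 0.05. Among 8607 genes with enough counts to test, 353 (4.1%) were called, of which 213 (2.47%) stood higher and 140 (1.63%) lower after mating. With library size alone as the scale, 146 were higher and 726 lower. The midgut label was checked against enterocyte markers (nub, Myo31DF, betaTry, epsilonTry and cad), which were all present and summed to 23197 to 30803 CPM in mated and 17690 to 22990 CPM in virgin libraries; 1 of these 5, epsilonTry, rose, a call lost without mated 2 (adjusted p = 0.0501) or mated 3 (adjusted p = 0.0639). Visceral muscle markers moved with mating, as 4 of 4 (Mhc, Act57B, Mlc2 and up) rose, with summed levels of 1974 to 2958 CPM in mated and 1121 to 1398 CPM in virgin libraries. With each library left out in turn, Act57B passed in 6 of 6 fits, Mlc2 in 4, Mhc in 3 and up in 1. Markers of fat body summed to 68.7 to 200 CPM in mated and 57.1 to 214 CPM in virgin libraries, with Fbp1 at 0 counts throughout. Most of this sum was Yp1 and Yp2 in every library. Yp1 had 91.2, 46.3 and 36.6 CPM in mated and 92.7, 147 and 40.1 CPM in virgin libraries. Yp2 had 74.7, 33.9 and 32.1 CPM in mated and 51.2, 62.1 and 17 CPM in virgin libraries. Neither passed (edgeR adjusted p = 0.656 for Yp1 and 0.951 for Yp2). Of the other fat body markers, the gene to had 734, 2 and 0 counts in mated and 3, 140 and 0 counts in virgin libraries. Lsp2 had 16, 2 and 0 counts in mated and 0, 0 and 1 counts in virgin libraries. Without mated 1 the log2 fold change was 2.45 for CG6839, 1.87 for CG3819, 0.55 for CG14120, 0.18 for CG33346 and 0.43 for Sid. Markers of ovary summed to 0 to 1.53 CPM in mated and 0 to 30.8 CPM in virgin libraries. Virgin 2 stood apart here, with 725 counts of osk and 192 of nos where virgin 1 and virgin 3 had 0 of either. Without it the log2 fold change was 2.52 for CG6839, 1.83 for CG3819, 0.48 for CG14120, 0.87 for CG33346 and 0.04 for Sid. Markers of hemocytes summed to 0.527 to 1.32 CPM in mated and 0.531 to 2.72 CPM in virgin libraries. Progenitor markers summed to 37.7 to 40.7 CPM in mated and 32.6 to 44.4 CPM in virgin libraries. Enteroendocrine markers summed to 228 to 242 CPM in mated and 228 to 275 CPM in virgin libraries. Both sums overlapped between the groups. No member of either list passed in edgeR, DESeq2 or limma-voom, with 0 and 1 at an unadjusted p below 0.05. The 1 was Dh31 (log2 fold change 0.76 ± 0.30, edgeR adjusted p = 0.231). Tk went the other way, without overlap, at 111, 109 and 111 CPM in mated and 144, 123 and 122 CPM in virgin libraries (log2 fold change -0.23 ± 0.12, edgeR adjusted p = 0.375). The groups overlapped in pros and AstC. In bulk tissue, a change in the number of cells of a type and a change in RNA per cell cannot be told apart.

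The 6 genes lie as neighbours at 3 loci, 2 at each. CG6839 (FBgn0036831, 3L, 18917581 to 18919259, plus strand) and CG3819 (FBgn0036833, 3L, 18920430 to 18922108, minus strand) point at each other, with 1170 bases between their ends and the gene CG18223 in the gap. CG14120 (FBgn0036321, 3L, 12885039 to 12889244, plus strand) and CG14118 (FBgn0036323, 3L, 12892658 to 12894758, plus strand) run in the same direction, 3413 bases apart, with CG43894 between them. CG33346 (FBgn0053346, 3R, 28669233 to 28670452, plus strand) and Sid (FBgn0039593, 3R, 28670704 to 28672021, plus strand) follow each other head to tail, 251 bases apart. Coordinates are of dm6, from the Ensembl annotation. Apart from CG14120, the genes are alike in coding length. CG6839 has 1290 coding bases, CG3819 1269, CG14118 1317, CG33346 1092 and Sid 1110. The 1 exon of CG14120 holds 4113 coding bases. Of the others, CG6839, CG3819 and CG14118 have 2 exons, and CG33346 and Sid have 3.

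**Figure D1:**
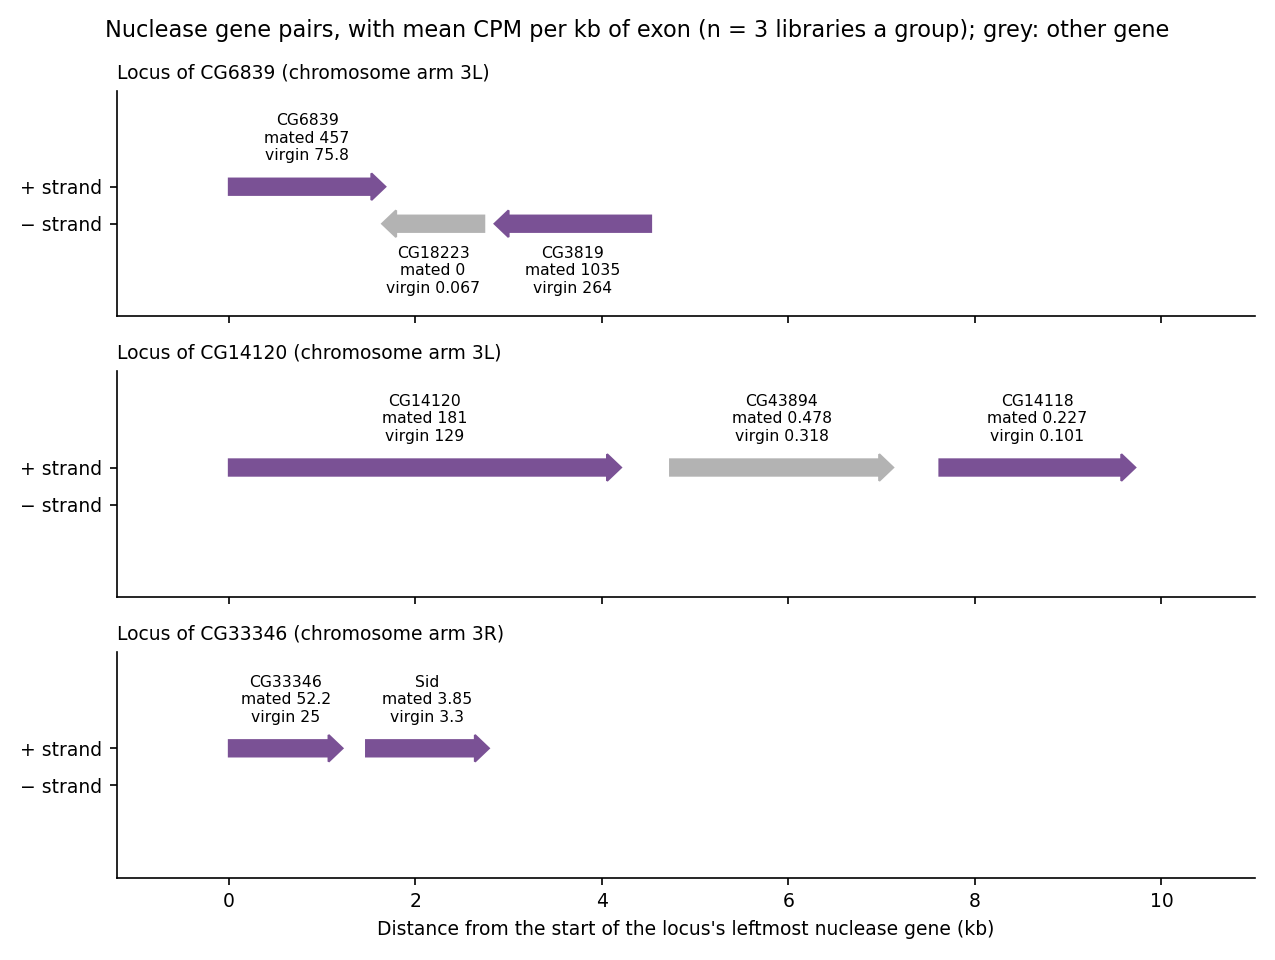
Map of the 3 loci, with distance in kb from the start of the leftmost nuclease gene on the x axis, arrows for genes in the direction of transcription on each strand, and mean CPM per kb of exon in mated and virgin libraries printed at each gene (n = 3 a group). CG6839 and CG3819 both stood higher in mated than in virgin midguts, while CG18223 between them was at or near 0 in both.

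CG6839 had 719, 633 and 464 CPM in mated libraries 1 to 3, against 119, 89.2 and 93.4 CPM in virgin libraries 1 to 3. The lowest mated library held several times the level of the highest virgin library. The means were 606 ± 130 CPM in mated and 100 ± 16 CPM in virgin midguts (SD, n = 3 each), and the fitted log2 fold change, mated over virgin, was 2.59 ± 0.19 (SE), or 6.03-fold. By size of change CG6839 stood at place 15 among the 213 genes that were higher in mated midguts. It is an uncharacterised gene, named after its annotation number, and the value behind its place on the list of members is this same contrast.

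CG3819, its neighbour on the opposite strand, had 1664, 1601 and 1148 CPM in mated libraries, against 517, 296 and 315 CPM in virgin libraries. Again the groups did not overlap, and mated 3 was the lowest of the mated libraries for both genes. The means were 1471 ± 281 CPM in mated and 376 ± 122 CPM in virgin midguts (SD, n = 3 each), with a log2 fold change of 1.97 ± 0.24 (SE), or 3.91-fold, at place 32 among the higher genes. Over the 6 libraries the log2 levels of CG6839 and CG3819 had a Pearson r of 0.99, a value in which the step between the groups weighs heavily. Per kb of exon, CG3819 stood 2.15, 2.36 and 2.30 times above CG6839 in mated libraries, against 4.05, 3.09 and 3.14 times in virgin libraries. The gap between the neighbours was thus narrower in all 3 mated libraries than in any virgin library.

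CG18223, which lies between them and overlaps the end of CG6839 by 36 bases, did not share these levels. On its own strand it had 0 counts in all mated libraries and 6, 0 and 0 counts in virgin libraries. Reads on the other strand, that of CG6839, numbered 534, 385 and 357 over CG18223 in mated and 216, 87 and 60 in virgin libraries. These are 3.39%, 3.87% and 4.06% of the CG6839 count in mated and 6.04%, 3.05% and 3.58% of it in virgin libraries. The column that ignores strand gave CG6839 fewer reads than its own strand did, by 519, 378 and 349 in mated and 216, 93 and 60 in virgin libraries. On the outer sides of the locus, CG14077 had 3 counts in mated 1 and 0 in the other libraries, and CG32204 averaged 0.317 CPM in mated and 0.627 CPM in virgin midguts. CG32204 did not pass (log2 fold change -0.97 ± 0.92, edgeR adjusted p = 0.642).

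CG14120, the long member, was abundant in both groups. It had 698, 780 and 810 CPM in mated libraries, against 499, 531 and 598 CPM in virgin libraries. The groups did not overlap, but the distance between them was small beside that of CG6839. The means were 763 ± 57.9 CPM in mated and 543 ± 50.5 CPM in virgin midguts (SD, n = 3 each), with a log2 fold change of 0.49 ± 0.13 (SE). The same value was 0.24 ± 0.14 when libraries were scaled by their size alone. Its mated and virgin levels were closer in proportion than those of CG3819, at a fitted 1.4-fold for CG14120 against 3.91-fold for CG3819.

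CG14118, downstream of it, was barely detected. It had 7, 5 and 9 counts in mated libraries, against 15, 0 and 0 counts in virgin libraries. These are 0.32, 0.318 and 0.475 CPM in mated and 0.498, 0 and 0 CPM in virgin libraries, where a count of 0 allows a level of up to 0.0938 CPM in virgin 2 and 0.167 CPM in virgin 3 (3 counts on the same scaled library size, counting error only). The highest library was virgin 1, so the groups overlapped. CG14118 had too few counts to be tested, and no fold is given. Its neighbours were also low or did not pass. CG43894 averaged 1.01 CPM in mated and 0.67 CPM in virgin midguts (log2 fold change 0.58 ± 0.85, edgeR adjusted p = 0.789), and CG12520 averaged 0.545 CPM in mated and 0.433 CPM in virgin midguts (log2 fold change 0.31 ± 1.10, edgeR adjusted p = 0.916). Upstream of CG14120, CG10943 averaged 94.7 CPM in mated and 58 CPM in virgin midguts, with overlapping groups (log2 fold change 0.71 ± 0.51, edgeR adjusted p = 0.576).

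CG33346 varied more between libraries of a group than any other well-expressed member. It had 109, 33.9 and 28.3 CPM in mated libraries, against 45.3, 19.5 and 17.3 CPM in virgin libraries. In each group the library numbered 1 was well above the others, and virgin 1 exceeded mated 2 and mated 3. The means were 57.2 ± 45.3 CPM in mated and 27.4 ± 15.6 CPM in virgin midguts (SD, n = 3 each), with a log2 fold change of 1.06 ± 0.75 (SE) that was 0.18 ± 0.44 without mated 1.

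Sid, directly downstream of CG33346, encodes a DNase first described as induced by stress. It was low, at 3.24, 5.98 and 4.80 CPM in mated libraries, against 6.24, 2.97 and 2.79 CPM in virgin libraries. The groups overlapped across nearly their whole range. The log2 fold change was 0.22 ± 0.41 (SE), and 0.73 ± 0.40 without virgin 1. Although the genes lie 251 bases apart on the same strand, Sid did not share the high level of CG33346 in mated 1. The ratio of CG33346 to Sid per kb of exon was 37.3, 6.28 and 6.52 in mated and 8.04, 7.29 and 6.87 in virgin libraries. Over the 6 libraries their log2 levels had a Pearson r of 0.20. Reads on the opposite strand were few for all 6 genes, with at most 51 for any gene and library, and the highest share was 13.6% for Sid, from 15 reads in virgin 2. Beyond Sid, snu averaged 14.1 CPM in mated and 8.04 CPM in virgin midguts and did not pass (log2 fold change 0.81 ± 0.31, edgeR adjusted p = 0.206). On the other side of the locus CG9988 had 28, 4 and 0 counts in mated and 0, 39 and 0 counts in virgin libraries and was not tested.

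**Figure D2:**
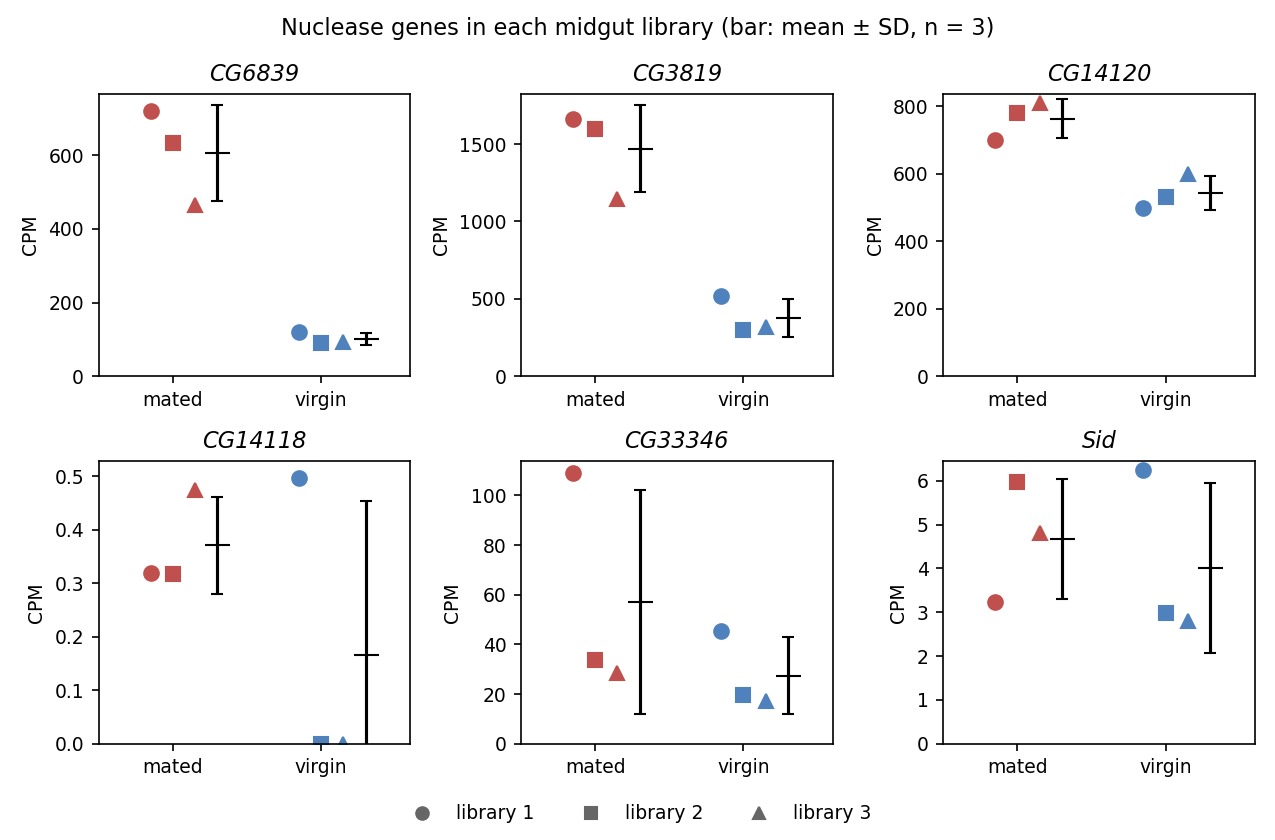
CPM of each of the 6 genes (y axis, 1 panel a gene with its own scale from 0) in the mated libraries (red, left) and virgin libraries (blue, right), with the marker shape giving the library number and the bar the mean ± SD (n = 3, not drawn below 0). CG6839, CG3819 and CG14120 show no overlap of the groups, and CG33346 shows the library numbered 1 on top in both groups.

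Of the 6 genes, 5 had enough counts to be tested. All 5 had positive log2 fold changes, with a median of 1.06 where all tested genes had -0.05. This median is the value of CG33346, which was 0.18 without mated 1. CG6839 and CG3819 passed in edgeR and CG14120, CG33346 and Sid did not, beside 4.1% of all tested genes. Groups did not overlap in 3 of the 5, beside 23.9% of all tested genes. Since the genes were listed with this contrast known, nothing is read from these counts. CG6839 kept a log2 fold change of 2.45 to 2.76 and CG3819 of 1.83 to 2.30 when any 1 library was left out, and both passed in all 6 such fits.

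Compared per kb of exon, the members spanned more than 3 orders of magnitude. In mated midguts CG3819 averaged 1035 ± 198, CG6839 457 ± 97.9, CG14120 181 ± 13.8, CG33346 52.2 ± 41.3, Sid 3.85 ± 1.13 and CG14118 0.227 ± 0.0549 CPM per kb (SD, n = 3). In virgin midguts the order was CG3819 at 264 ± 86, CG14120 at 129 ± 12, CG6839 at 75.8 ± 12.1, CG33346 at 25 ± 14.2, Sid at 3.3 ± 1.6 and CG14118 at 0.101 ± 0.176 CPM per kb (SD, n = 3). In neither group did the ranges of neighbours in the order overlap. CG6839 and CG14120 thus changed places, as CG6839 stood 3.27, 2.58 and 1.82 times above CG14120 in mated libraries, against ratios of 0.755, 0.533 and 0.496 in virgin libraries.

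Among the 8593 tested genes with an annotated exon length, CG3819 was at place 90 by mean level per kb in mated and at place 305 in virgin midguts. CG6839 was at place 227 in mated and 821 in virgin midguts, and CG14120 at place 454 in mated and 533 in virgin midguts. CG33346 stood above 86.2% of these genes in mated and 76.6% in virgin midguts, and Sid above 31.7% in mated and 27.5% in virgin midguts. The median gene had 8.08 CPM per kb in mated and 8.35 CPM per kb in virgin midguts. Of the 6 genes, 4 thus stood above the median gene in both groups, while Sid and CG14118 stood below it.

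As a whole, the 6 genes took 0.275%, 0.295% and 0.227% of gene counts in mated libraries, against 0.123%, 0.104% and 0.116% in virgin libraries. Their summed level was 3194, 3055 and 2456 CPM in mated and 1187, 939 and 1026 CPM in virgin libraries, a log2 ratio of group means of 1.47. The lowest mated library lay above the highest virgin library. Per kb of exon, CG6839 and CG3819 together made up 86.1 ± 2.02% of the summed level in mated and 67.7 ± 4.83% in virgin midguts (SD, n = 3 each). The share of CG3819 was 59.7 ± 1.71% in mated and 52.3 ± 5.55% in virgin midguts, with overlapping ranges, and that of CG14120 was 10.8 ± 2.84% in mated and 26.9 ± 6.68% in virgin midguts, with no overlap.

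**Figure D3:**
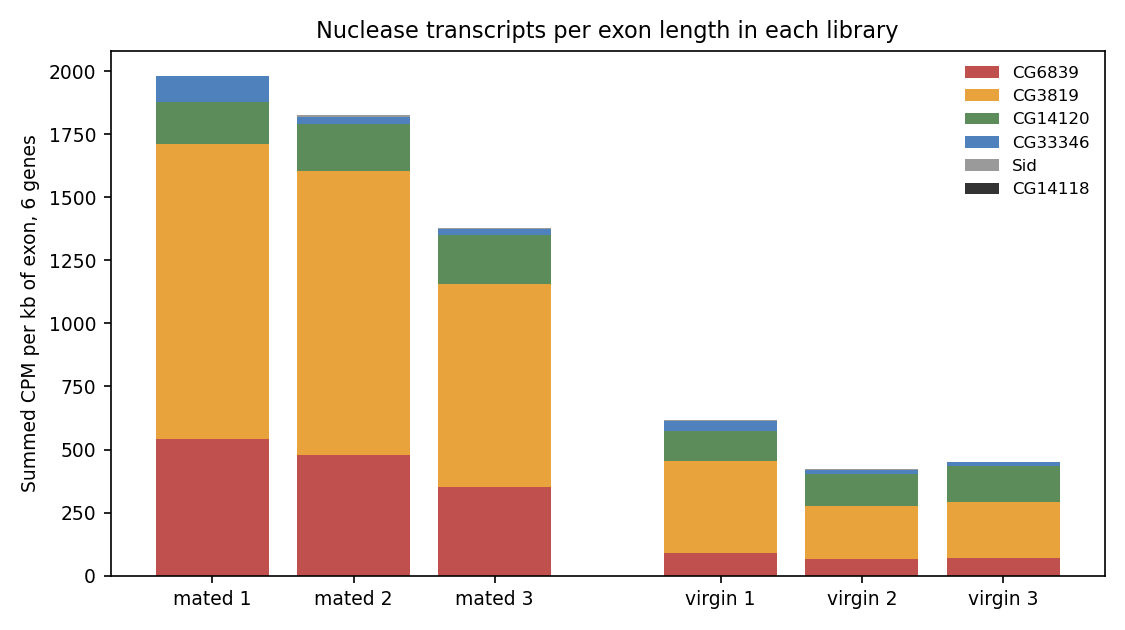
Stacked bars of the level of each nuclease gene per kb of exon (y axis, CPM per kb) in the 3 mated and 3 virgin libraries (x axis). CG3819 is the tallest segment in all 6 bars, and the segments of CG6839 and CG3819 are taller in every mated library than in any virgin library.

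The genes most like each member over the 6 libraries were picked by Pearson r of log2(CPM + 1) among 6592 other genes with a mean of at least 5 CPM. For CG6839 these were Mlp84B, a muscle LIM protein (r = 0.9978), CG12374 (r = 0.9947) and Fer2LCH, the ferritin light chain (r = 0.9928). Mlp84B had 137, 137 and 106 CPM in mated and 53.5, 47.8 and 48 CPM in virgin libraries. CG12374 was far more abundant, at 58945, 53202 and 53092 CPM in mated and 31797, 29953 and 29914 CPM in virgin libraries. Fer2LCH had 2754, 2809 and 2667 CPM in mated and 1793, 1575 and 1656 CPM in virgin libraries. For CG3819 they were CG18622 (r = 0.9961), CG3566 (r = 0.9927) and the muscle actin Act57B (r = 0.9897), which had 934, 752 and 583 CPM in mated and 333, 232 and 264 CPM in virgin libraries. A muscle gene thus stands among the nearest for each member of this locus, beside others such as CG12374 and Fer2LCH. Muscle markers were higher in mated midguts as given above. The part of muscle in the levels of CG6839 and CG3819 was not tested.

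For CG14120 the nearest genes were the C-type lectin gene lectin-37Da (r = 0.9950), the mucin Muc55B (r = 0.9925) and CG7912 (r = 0.9920), all of which were lowest in virgin 1, as CG14120 was. For CG33346 they were CG5214 (r = 0.9960), ND-B18, a subunit of respiratory complex I (r = 0.9941), and spin (r = 0.9898), each with its highest level in mated 1. For Sid they were Ubc6, a ubiquitin-conjugating enzyme (r = 0.9870), Hem (r = 0.9767) and Lrch (r = 0.9742). With 6 libraries and this many genes, high values of r are common, and they describe these libraries only.

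Of the other nucleases listed here, none that could be tested passed, and nuclease genes outside these lists were not looked up. Of 7 relatives of the family outside the 6 genes, the mitochondrial nuclease EndoG and its paralogues Tengl1 to Tengl4, CG12917 and CG14062, 5 had 0 counts in all 6 libraries, which allows at most 0.0938 to 0.191 CPM, depending on the library. These were Tengl1, Tengl2, Tengl3, Tengl4 and CG14062, the last of which lies 26341 bases from CG33346. CG12917 had 3 counts in mated and 16 in virgin libraries. EndoG, the 1 relative that could be tested, had 9.09, 10.3 and 12.1 CPM in mated and 8.9, 8.85 and 3.79 CPM in virgin libraries and did not pass (log2 fold change 0.54 ± 0.31, edgeR adjusted p = 0.427).

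Of 4 nucleases of other families, 0 passed in edgeR, DESeq2 or limma-voom, and 0 had an unadjusted p below 0.05. All 4 had negative log2 fold changes, with a median of -0.64. The groups overlapped in all 4, and only RNaseX25 reached 5 CPM in any library. RNaseX25, a secreted ribonuclease of the T2 family, had 32.7, 35.8 and 31.6 CPM in mated and 40.6, 36.5 and 34.1 CPM in virgin libraries (log2 fold change -0.15 ± 0.14, edgeR adjusted p = 0.63). DNaseII, an acid DNase of the lysosome, averaged 2.64 ± 0.193 CPM in mated and 3.78 ± 0.872 CPM in virgin midguts (SD, n = 3 each; log2 fold change -0.52 ± 0.39, edgeR adjusted p = 0.555).

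Downstream of the nucleases, 4 of 26 tested genes that handle nucleotides and nucleosides rose (CG42249, Adgf-A, CG17224 and Uro), beside 2.47% of all tested genes. At an adjusted p of 0.01 the count was 0. Of 16 genes for 5'-nucleotidases, an apyrase, secreted adenosine deaminases and nucleoside transporters, 12 could be tested. Of these, 2 rose, 0 fell and 10 did not pass in edgeR, with a median log2 fold change of 0.27. At an unadjusted p below 0.05, 5 were higher and 1 lower, and DESeq2 called 3 and limma-voom 2 higher, with 0 lower in either. CG42249, a predicted 5'-nucleotidase, had 791, 619 and 695 CPM in mated and 429, 360 and 432 CPM in virgin libraries. Its groups did not overlap (log2 fold change 0.79 ± 0.14, edgeR adjusted p = 0.0112), and the call was lost without mated 3 (adjusted p = 0.0503). Adgf-A, a secreted adenosine deaminase, had 341, 308 and 317 CPM in mated and 193, 202 and 252 CPM in virgin libraries (log2 fold change 0.58 ± 0.14, edgeR adjusted p = 0.0418). Adgf-A passed without virgin 3 but in none of the 5 fits without another library (adjusted p of 0.132 at most), nor with library size alone as the scale (adjusted p = 0.165).

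CNT2, a concentrative nucleoside transporter, had the largest log2 fold change of these 12 genes but did not pass. It had 392, 225 and 256 CPM in mated libraries, against 39, 43.9 and 129 CPM in virgin libraries. All mated libraries were above all virgin libraries, with virgin 3 apart from the other two (log2 fold change 2.05 ± 0.60, edgeR adjusted p = 0.193). Its adjusted p was 0.0107 in DESeq2, and 0.001 in edgeR without virgin 3. CNT2 passed in no edgeR fit without another library (adjusted p up to 0.421), nor in limma-voom (adjusted p = 0.113). The ecto-5'-nucleotidase gene veil was abundant, at 789 ± 60.3 CPM in mated and 613 ± 67.5 CPM in virgin midguts (SD, n = 3 each), and did not pass (log2 fold change 0.36 ± 0.14, edgeR adjusted p = 0.197).

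Of 16 genes of nucleoside salvage and breakdown, 14 could be tested, and 2 rose, 0 fell and 12 did not pass in edgeR, with a median log2 fold change of 0.31. At an unadjusted p below 0.05, 4 were higher and 0 lower, and DESeq2 called 4 and limma-voom 2 higher, with 0 lower in either. CG17224, a predicted uridine phosphorylase that releases uracil from uridine, had 196, 195 and 158 CPM in mated and 114, 107 and 122 CPM in virgin libraries (log2 fold change 0.68 ± 0.13, edgeR adjusted p = 0.0163). It did not pass without mated 2, virgin 1 or virgin 2 (adjusted p up to 0.0817), nor with library size alone as the scale (adjusted p = 0.0757). CG8353, a predicted cytidine deaminase, had 67, 67.5 and 70.3 CPM in mated and 30.1, 21.7 and 47.6 CPM in virgin libraries and lay at the threshold (log2 fold change 1.05 ± 0.25, edgeR adjusted p = 0.0511). It passed without virgin 2 (adjusted p = 0.0497) or virgin 3 (adjusted p = 0.00328), in limma-voom (adjusted p = 0.0162) and DESeq2 (adjusted p = 0.00046), with unstranded counts (adjusted p = 0.0475) and with RLE (adjusted p = 0.0497) or upper-quartile scaling (adjusted p = 0.0383). It did not pass without virgin 1 or any of the mated libraries (adjusted p up to 0.169). Nor did it with library size alone (adjusted p = 0.0812), a filter of 1 CPM (adjusted p = 0.0527) or no low-count filter (adjusted p = 0.0641). The pyrimidine breakdown enzyme su(r) had 382, 233 and 295 CPM in mated and 113, 182 and 199 CPM in virgin libraries and did not pass (log2 fold change 0.88 ± 0.24, edgeR adjusted p = 0.0863), though it did in DESeq2 (adjusted p = 0.00116). With each library left out, su(r) passed in 0 of 6 edgeR fits (adjusted p up to 0.231), nor did it in limma-voom (adjusted p = 0.0852).

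The other gene of that list that rose was Uro, urate oxidase, the enzyme that breaks down uric acid at the end of purine catabolism. It had 13.6, 22.2 and 44.8 CPM in mated libraries, against 2.59, 3.63 and 1.17 CPM in virgin libraries (log2 fold change 3.41 ± 0.60, edgeR adjusted p = 0.0363). Uro did not pass without mated 2 or any of the virgin libraries (adjusted p up to 0.134), with limma-voom (adjusted p = 0.0887) or with no low-count filter (adjusted p = 0.0936). Uro is also known as a marker of the Malpighian tubules, the excretory organ attached to the gut. Of the 2 tubule markers, Uro rose and ZnT35C did not pass, at 3.73 ± 1.07 CPM in mated and 3.47 ± 1.77 CPM in virgin midguts (SD, n = 3 each; log2 fold change 0.10 ± 0.47, edgeR adjusted p = 0.937). The summed level of these 2 markers, 16.1 to 49.3 CPM in mated and 4.25 to 8.82 CPM in virgin libraries, consists mostly of Uro itself in the mated libraries and so adds nothing to its own values.

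**Figure D4:**
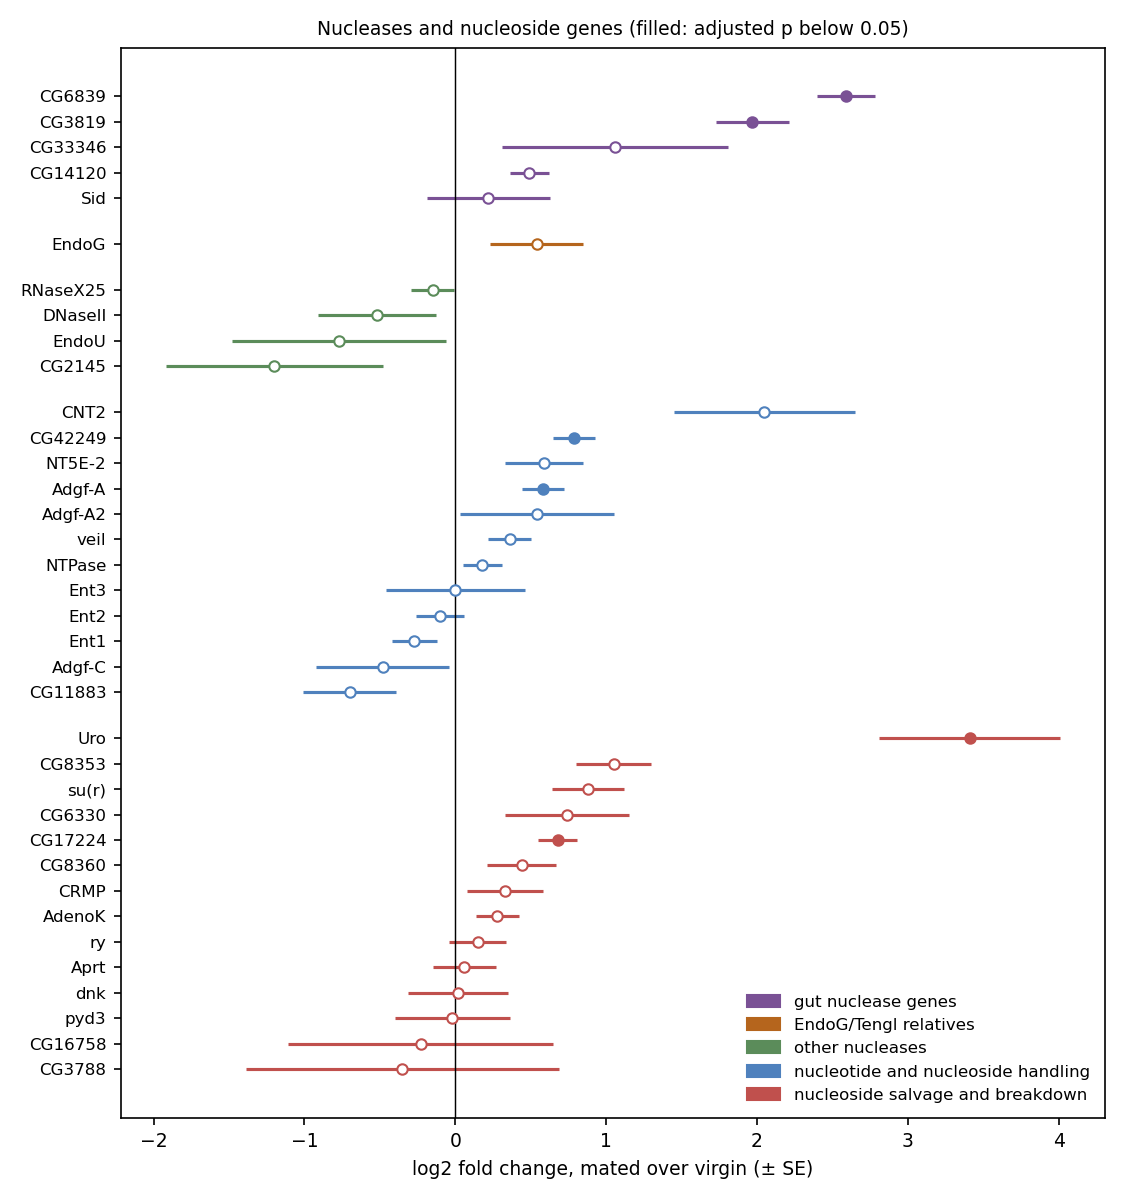
Fitted log2 fold changes, mated over virgin (x axis, bars ± SE, 3 libraries a group), of the 5 tested nuclease genes and of 31 tested genes of other nucleases and of nucleotide and nucleoside use (y axis). Filled points passed an adjusted p of 0.05 in edgeR; of the other genes shown, Uro alone lies right of CG6839 at 2.59, and Uro and CNT2 lie right of CG3819 at 1.97.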

How the data were processed

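Midgut RNA was isolated with TRIzol and sequenced as strand-specific TruSeq mRNA libraries, per the labels' protocols. The tools named are STAR, CASAVA 1.8.4 and DESeq2 1.42.0, and the build is dm6, per the submitters' processing notes, which state no roles. The deposited files hold raw counts per gene in 3 columns (unstranded, forward and reverse strand) below 4 summary rows, which stayed out of library sizes and tests; in this layout reads placed at several positions (5.67% to 7.67% of a mated and 4.31% to 4.98% of a virgin library, ranges that do not overlap) belong to no gene, so near-identical genes may be under-counted. The reverse-strand counts were used, as only 1.86% to 2.32% of stranded counts lay in the forward column. In each library, unmapped reads made up 5.47% to 12.8%, reads in no gene 4.82% to 8.93% and ambiguous reads 1.15% to 1.28%.

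The counts were fitted with edgeR 4.0.16 in R 4.3.3 (filterByExpr, TMM factors of 0.86 to 0.965 in mated and 1.04 to 1.13 in virgin libraries, robust glmQLFit, two-sided glmQLFTest on group, Benjamini-Hochberg adjustment over 8607 genes); the common biological coefficient of variation was 0.291. Standard errors were derived from the F statistic. The pipeline was tested on simulated data. Levels per kb used the union of annotated exons; 17056 of 17116 symbols matched the Ensembl annotation, 785 of them through RefSeq synonyms. The alternatives tried were DESeq2 1.42.0, limma-voom (limma 3.58.1), scaling by RLE, upper quartile or library size, 2 other low-count filters, a replicate block, unstranded counts, omission of each library and a threshold of 0.01.

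The members and gene lists were chosen with earlier results of these data known. Named genes are the members; in each list those that passed, or the 2 highest where none did; the 3 genes most like each tested member; and the nearest genes with counts. CNT2, veil, CG8353 and su(r) were chosen after their values were seen. Protein and promoter sequences were not used here.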

Additional observations from a re-analysis of the deposited data

How the results depend on the processing

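CG6839 and CG3819 passed under all 16 alternatives, including the threshold of 0.01, with log2 fold changes of 2.34 to 2.76 and 1.73 to 2.30. The members called numbered 2 when each library was left out in turn and 2 under every other alternative except DESeq2 and the replicate block, which each gave 3. DESeq2 added CG14120 (adjusted p = 0.00184). Same-numbered libraries did not deviate together (r of -0.15, -0.08 and -0.03 over 8607 genes), so the numbers were not taken as pairs; with the replicate block 290 genes were called in place of 353, 3 of the nucleotide genes in place of 4 (Uro, at an adjusted p of 0.143, and Adgf-A, at 0.0585, were lost and CG8353, at 0.0255, was gained), and CG33346 passed (log2 fold change 0.93, adjusted p = 0.0172). Over all genes, 638 were called with DESeq2, 872 with library size alone as the scale, which moved the median log2 fold change from -0.05 to -0.30, and 134 at 0.01; leaving out 1 library gave 169 to 308, with 169 without mated 2, 191 without mated 3 and 225 without virgin 2. Of the 31 tested genes of other nucleases and nucleotide use, 4 were called, against 7 with DESeq2, 2 with library size alone and 0 at 0.01; leaving out 1 library gave 1 to 5, with 1 without mated 2 or virgin 1 and 2 without mated 3 or virgin 2. The cause of these differences was not tested. The summed level of the members had a log2 ratio of 1.47, which was 1.21 with library size alone and 1.39 to 1.57 when 1 library was left out; these settings for the sum were chosen after seeing the data. Counts limit what can be said of CG14118 and Sid.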
